A study of Mus musculus with 15 samples.

Results

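The comparison described here covers the first days of morphogen treatment in a mouse dopaminergic differentiation: 3 arrays of treated cells at day 9 (9 days into differentiation) were set against 3 arrays of cells at day 5, before any morphogen. These 6 arrays were taken by their sample titles out of the 15 of the study. The study measured miRNAs in epiblast stem cells (EpiSC), pluripotent cells of the post-implantation embryo type, which were derived from mice carrying a GFP reporter of Pitx3, a transcription factor gene of midbrain dopaminergic neurons. Treated cells received SHH and FGF8 from day 5, the day 5 cells had received neither, and control cells, collected at day 9 like the treated cells, were grown without either morphogen; the study also has treated and control cells at day 14. Both groups of the comparison share the reporter background and the first 5 days of differentiation without morphogens. The treated cells differ from the day 5 cells in both time and morphogens, and within this comparison time and morphogens cannot be told apart. Control day 9 values are therefore given beside the main ones further on. The labels do not say whether the 3 arrays of a group come from separate cultures. Each p-value rests on the spread between arrays within the study's 5 groups, pooled in a joint fit, and that spread may be technical.

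miRNAs are short RNAs cut from hairpin precursors, and they repress mRNAs that pair with their seed, the bases near the 5′ end. miRNAs that share a seed share most predicted targets, and many are made in clusters from a single transcript. In mouse pluripotent cells the miR-290 and miR-302 clusters are known as the abundant miRNAs that promote the cell cycle, while let-7 is known for the opposite role: its processing is blocked by LIN28 in stem cells and it accumulates as cells differentiate. miR-125, miR-9 and miR-124 are known from neural progenitors and neurons.

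Mature sequences of the miRNAs that carry the main differences are shown first, so that shared seeds can be seen; most printed families of a shared seed moved one way, but not all: of 6 tested miRNAs with the seed of miR-92a-3p, 4 were lower, miR-32-5p was higher (0.23) and miR-25-3p was not called. They are from RefSeq (GRCm38.p6), written 5′ to 3′, with the seed (bases 2 to 8) in capitals. The first set holds miRNAs that were lower in treated day 9 cells. Members of the miR-302 cluster and miR-294-3p of the miR-290 cluster carry the letters AAGUGC from base 1 or 2, and miR-17-5p, miR-20a-5p and miR-20b-5p carry them from base 3.
miR-302b-3p: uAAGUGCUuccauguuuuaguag
miR-302c-3p: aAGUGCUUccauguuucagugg
miR-302d-3p: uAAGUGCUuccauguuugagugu
miR-294-3p: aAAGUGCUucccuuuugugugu
miR-17-5p: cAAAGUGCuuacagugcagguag
miR-20a-5p: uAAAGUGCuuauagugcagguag
miR-20b-5p: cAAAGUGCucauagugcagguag
miR-18a-5p: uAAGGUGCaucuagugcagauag
miR-18b-5p: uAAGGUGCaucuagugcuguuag
miR-19a-3p: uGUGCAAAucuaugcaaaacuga
miR-367-3p: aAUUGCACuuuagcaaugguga
miR-363-3p: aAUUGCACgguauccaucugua
miR-92a-3p: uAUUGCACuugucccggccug

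The second set holds miRNAs that were higher in treated day 9 cells, in families of a shared seed: let-7, miR-125, miR-99/100, miR-27 and miR-29. miR-23a-3p and miR-24-3p are shown with miR-27a-3p as members of its cluster, and both arms of the miR-9 hairpin are given. miR-132-3p (higher) and miR-212-3p (not called) share a seed.
let-7a-5p: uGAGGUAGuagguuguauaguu
let-7c-5p: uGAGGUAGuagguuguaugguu
let-7e-5p: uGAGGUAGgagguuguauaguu
let-7f-5p: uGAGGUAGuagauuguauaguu
let-7g-5p: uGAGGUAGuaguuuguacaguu
let-7i-5p: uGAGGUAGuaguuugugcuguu
miR-125a-5p: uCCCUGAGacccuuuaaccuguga
miR-125b-5p: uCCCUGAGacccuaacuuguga
miR-99a-5p: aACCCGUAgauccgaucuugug
miR-100-5p: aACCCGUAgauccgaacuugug
miR-23a-3p: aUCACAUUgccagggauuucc
miR-27a-3p: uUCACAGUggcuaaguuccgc
miR-27b-3p: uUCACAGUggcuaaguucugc
miR-24-3p: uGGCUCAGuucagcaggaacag
miR-29a-3p: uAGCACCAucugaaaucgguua
miR-29b-3p: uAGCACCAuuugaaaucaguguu
miR-29c-3p: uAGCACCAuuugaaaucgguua
miR-132-3p: uAACAGUCuacagccauggucg
miR-212-3p: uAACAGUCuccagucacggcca
miR-9-5p: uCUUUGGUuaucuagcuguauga
miR-9-3p: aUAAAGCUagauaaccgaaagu

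At day 9, treated cells had less of the miR-302, miR-290 and miR-17-92 miRNAs and more of let-7, miR-125b, miR-99a, miR-9, miR-23/27/24 and miR-29 than day 5 cells. miR-375-3p, below background at day 5, had the largest bounded increase. Values are scaled signals on a log2 scale, on which 0 is the 75th percentile of the array, taken over probes above background on all 15 arrays, and -4.27 is the floor set for low signals. A difference of 1 on this scale is 2-fold. Of 1122 mouse miRNAs on the array, 306 were tested with limma, those above background on every array of 1 or more of the study's 5 groups. At an adjusted p below 0.05, 180 of them (58.8%) were called: 115 (37.6%) were higher and 65 (21.2%) were lower in treated day 9 cells. The arrays of the groups did not overlap for 188 miRNAs (61.4%; 39.5% higher and 21.9% lower), and 56 called miRNAs differed by more than 2-fold (35 higher, 21 lower). The median difference over all 306 miRNAs was 0.10. The balance of the calls depends on the scaling: 63.9% of calls were higher here, against 49.0% to 52.2% with 4 other scalings, under which the median of all miRNAs lay between -0.02 and 0.00.

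Because most tested miRNAs were called, a high share of calls in a group is read against these percentages. Before scaling, that 75th percentile lay between 217.2 and 289.7 intensity units on the treated day 9 arrays and between 149.1 and 336.5 on the day 5 arrays. At least 271 miRNAs were above background on each treated array and at least 238 on each day 5 array. Between 4.08% and 5.09% of an array's spots were outliers, and saturation was seen at 0 spots. Replicates correlated at 0.997 to 0.998 among treated day 9 arrays and at 0.980 to 0.987 among day 5 arrays (Pearson r across the 306 miRNAs, which are not independent replicates). The median SD of a miRNA was 0.067 in treated day 9 cells and 0.199 at day 5. All 6 arrays lie on 1 slide. The number of arrays, 3 per group, limits the precision. RNA was measured in bulk, so fewer cells of a type and less RNA per cell cannot be told apart.

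**Figure D1:**
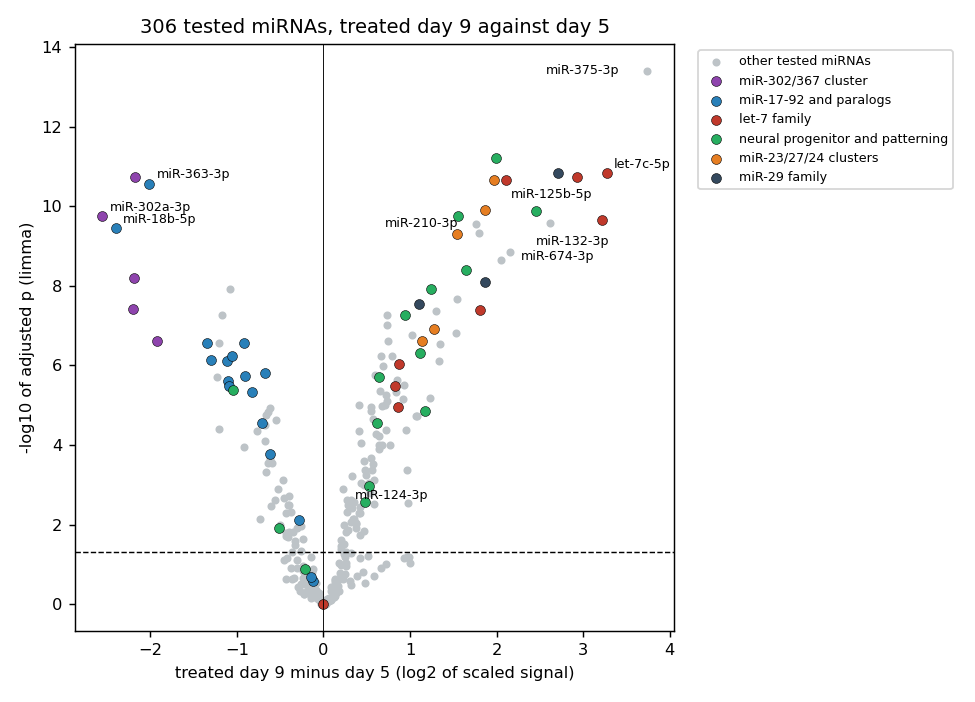
Difference between treated day 9 and day 5 cells (x axis, log2 of scaled signal) against -log10 of limma's adjusted p (y axis) for the 306 tested miRNAs, 1 point each, with 6 groups coloured. The dashed line marks an adjusted p of 0.05; miR-302 and miR-17-92 members lie on the left, let-7, miR-23/27/24 and miR-29 members on the right, and miRNAs at the floor in one group (such as miR-375-3p and miR-132-3p) are placed by a fitted difference that depends on the floor.

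The miR-302 cluster, which also holds miR-367, was lower throughout: 5 of 5 tested members fell, with a median of -2.19, and their arrays did not overlap between groups. All 5 were also lower with normexp, another background correction, and with a floor 4 times higher, but the median was then -1.04 and -0.81. The members lie at chr3:127545275-127545800 (+ strand, GRCm38.p6), within the span of Larp7 and of the lncRNA gene Gm51018; miR-302a-3p had no sequence match and is not part of that span. miR-302d-3p, the member most readily seen on these arrays in treated cells, had -2.20, -2.03 and -2.10 in treated day 9 cells, against 0.14, 0.37 and -0.23 in day 5 cells. Its signal was lower on every treated array, by -2.20 (SE 0.16, adjusted p = 3.8e-08, limma). miR-367-3p, which has another seed, had -2.94, -2.56 and -2.66 in treated day 9 cells and -0.66, -0.54 and -1.18 in day 5 cells, a difference of -1.92 (SE 0.17, adjusted p = 2.5e-07).

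Other members of the cluster came close to background in treated cells. miR-302a-3p had -4.08, -4.04 and -3.93 in treated day 9 cells, where 2 of 3 arrays were above background, against -1.31, -1.27 and -1.80 in day 5 cells (difference -2.56, SE 0.11, adjusted p = 1.8e-10). miR-302b-3p was at the floor and not above background on any treated array, and had -2.04, -1.93 and -2.29 in day 5 cells. It was at least 4.03-fold lower in treated cells (adjusted p = 1.8e-11), where the bound is set by the lowest signal counted as above background. Here and below, the p-value beside a bound is that of the fitted difference, which depends on the floor. miR-302c-3p, above background on 1 treated array, fell by 2.19 (SE 0.13).

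The miR-290 cluster is known to be high in naive mouse embryonic stem cells and low in EpiSC. It has 14 members on this platform, of which 6 reached a signal above background on some array and 2 were tested, and both were lower. miR-290-5p had -3.56, -3.66 and -3.44 in treated day 9 cells, against -2.64, -2.92 and -2.34 in day 5 cells (difference -0.92, SE 0.15, adjusted p = 1.1e-04). miR-294-3p was above background on 1 treated array, with -4.27, -4.24 and -4.27, against -3.16, -2.85 and -3.26 in day 5 cells (difference -1.17, SE 0.09, adjusted p = 5.5e-08). The groups did not overlap for either miRNA. miR-295-3p was above background on 0 treated and 2 day 5 arrays and was not tested. Both calls ended with a floor 4 times higher, because both groups then lie at it.

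The miR-17-92 cluster and its paralogs, known for promoting proliferation, were lower as a group. Of 17 tested members, 15 fell and 0 rose, with a median of -0.92. All 9 tested members at chr14:115043684-115044496 (+ strand), the miR-17-92 cluster, were lower, with differences from -0.67 to -1.35. All 6 at chrX:52741697-52742403 (- strand), the miR-106a-363 cluster, were lower too, with a median of -1.18; miR-19b-3p and miR-92a-3p are made at both loci. At chr5:138165332-138165807 (- strand), within Mcm7, 2 of 4 tested members were lower, miR-106b-3p and miR-93-5p, and the median was -0.21.

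The largest decreases in this group belonged to the cluster on chromosome X. miR-363-3p, which shares its seed with miR-367-3p, had -2.40, -2.40 and -2.31 in treated day 9 cells, against -0.38, -0.32 and -0.37 in day 5 cells. It fell by 2.01 (SE 0.07, adjusted p = 2.7e-11), and the groups lie far apart relative to their spread. miR-18b-5p had -4.27, -4.02 and -4.27 in treated day 9 cells, above background on 1 array, and -1.68, -1.59 and -2.10 in day 5 cells (difference -2.40, SE 0.11, adjusted p = 3.5e-10). miR-20b-5p had 1.37, 1.41 and 1.46 in treated day 9 cells and 2.53, 2.65 and 2.23 in day 5 cells (difference -1.05, SE 0.10, adjusted p = 5.7e-07).

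On chromosome 14, miR-17-5p had -1.22, -1.11 and -1.17 in treated day 9 cells, against -0.05, 0.14 and -0.27 in day 5 cells (difference -1.11, SE 0.12, adjusted p = 2.4e-06). miR-18a-5p had 0.09, 0.11 and 0.17 in treated day 9 cells, against 1.33, 1.45 and 0.95 in day 5 cells (difference -1.12, adjusted p = 7.7e-07). miR-19a-3p had -0.22, -0.10 and -0.09 in treated day 9 cells, against 1.04, 1.12 and 0.68 in day 5 cells (difference -1.09). In each of these, every treated array lay below every day 5 array. miR-20a-5p fell by 0.71 and miR-92a-3p by 0.92 (SE 0.08, adjusted p = 2.7e-07). The 2 members that did not pass the test were miR-106b-5p, with a difference of -0.12 (SE 0.09, adjusted p = 0.26), and miR-25-3p, with -0.14 (SE 0.09, adjusted p = 0.21); both lie in Mcm7.

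The letters AAGUGC within the first 9 bases, which 7 of the 13 sequences of the first set hold, are in 9 of the 227 tested miRNAs whose sequence was matched. Of these, 8 were lower and 0 were higher, with a median of -1.11, and the exception is miR-106b-5p. All 9 belong to clusters described above. The counts therefore restate the results of those clusters and are no separate test of the motif. Of 1679 mature miRNAs in the RefSeq table, 19 (1.13%) hold the motif within the first 9 bases. The motif was looked for in mature sequences as read 5′ to 3′.

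**Figure D2:**
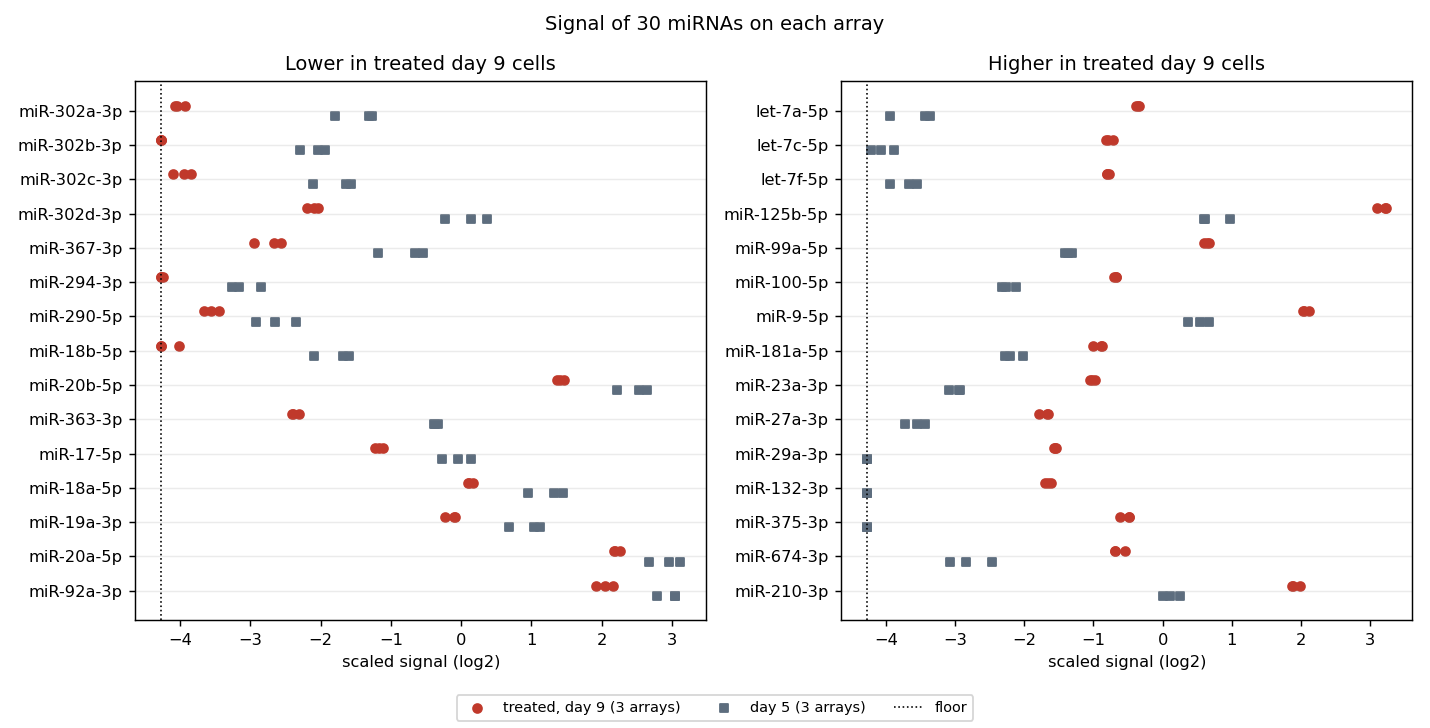
Scaled signal (x axis, log2) of 30 miRNAs on each array: treated day 9 (red circles, 3 arrays) and day 5 (grey squares, 3 arrays), with the floor dotted. For the 15 miRNAs on the left all treated arrays lie below all day 5 arrays and for the 15 on the right all lie above; the day 5 arrays of miR-375-3p, miR-132-3p and miR-29a-3p lie at the floor.

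let-7 miRNAs were higher in treated day 9 cells: 8 of 9 tested members rose and 0 fell, with a median of 1.81. let-7c-5p had -0.80, -0.72 and -0.82 in treated day 9 cells and -3.88, -4.07 and -4.21 in day 5 cells, where it was above background on 1 array (difference 3.27, SE 0.11, adjusted p = 1.5e-11). let-7a-5p had -0.36, -0.34 and -0.39 in treated day 9 cells and -3.44, -3.36 and -3.94 in day 5 cells, above background on 2 of those (difference 3.22, SE 0.15, adjusted p = 2.2e-10). let-7f-5p had -0.78, -0.80 and -0.80 in treated day 9 cells and -3.66, -3.55 and -3.94 in day 5 cells (difference 2.93, SE 0.10, adjusted p = 1.8e-11). The treated arrays agree closely in all of these, and day 5 signals lie near background. let-7a-5p, let-7d-5p and let-7f-5p are cleaved from hairpins at chr13:48536078-48538260 (- strand), and let-7f-5p also has another locus.

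The remaining let-7 members were not above background on any day 5 array. Their increases are bounds: at least 3.36-fold for let-7g-5p, at least 2.73-fold for let-7e-5p, at least 1.43-fold for let-7d-5p, at least 1.42-fold for let-7b-5p and at least 1.38-fold for let-7i-5p. let-7i-5p had -3.46, -3.46 and -3.43 in treated day 9 cells. miR-98-5p, of the same seed, was below background on all 6 arrays. With normexp, 5 let-7 members were called higher and the median was 0.38. With a floor 4 times higher, 3 were called higher and the median was 0.0.

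Of 15 tested miRNAs known from neural progenitors and patterning, 12 rose and 2 fell, with a median of 0.95 (0.36 with normexp, where 8 rose). miR-125b-5p, which promotes neural differentiation in mouse and human cells, had 3.10, 3.24 and 3.21 in treated day 9 cells and 0.61, 0.60 and 0.97 in day 5 cells (difference 2.46, SE 0.10, adjusted p = 1.3e-10). miR-99a-5p had 0.59, 0.67 and 0.65 in treated day 9 cells and -1.42, -1.31 and -1.36 in day 5 cells (difference 2.00, SE 0.06, adjusted p = 6.2e-12). miR-100-5p, with the same seed, had -0.70, -0.67 and -0.68 in treated day 9 cells and -2.32, -2.27 and -2.12 in day 5 cells (difference 1.56, SE 0.07, adjusted p = 1.8e-10). No treated array of these miRNAs came near a day 5 array.

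miR-125a-5p was higher by 1.65 (SE 0.10, adjusted p = 4e-09); it lies with let-7e-5p at chr17:17830366-17830876 (+ strand), within the span of Spaca6, and both rose. The other arm of its hairpin, miR-125a-3p, had a difference of -0.21 and was not called. All 4 miR-181 members, which share a seed, were higher, by 1.24 for miR-181a-5p, 0.95 for miR-181c-5p, 0.64 for miR-181b-5p and 0.62 for miR-181d-5p. miR-135a-5p, known in mouse for restraining Wnt signalling in the dopaminergic midbrain, had -0.24, -0.16 and -0.30 in treated day 9 cells, against -1.33, -1.20 and -1.70 in day 5 cells (difference 1.18, SE 0.15, adjusted p = 1.4e-05). Lower were miR-135a-1-3p, by -1.05 (SE 0.12, adjusted p = 4.1e-06), and miR-92b-3p, by -0.52 (SE 0.16, adjusted p = 0.012). The 3p arm from another miR-135a locus, miR-135a-2-3p, was higher by 0.48 (SE 0.12, adjusted p = 0.0027). It was above background on 2 treated and 1 day 5 arrays, and its day 5 values were at the floor. The miR-92b-3p arrays overlapped, with -2.21, -2.48 and -2.27 in treated day 9 cells and -1.68, -2.28 and -1.46 in day 5 cells, and its call ended without treated day 9 replicate 2 (adjusted p = 0.056) or without day 5 replicate 3 (adjusted p = 0.060).

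Neuronal miRNAs were mixed: of 21 tested, 9 rose and 1 fell, with a median of 0.20. Of these, 7 were below background on all 6 arrays, among them miR-138-5p and miR-129-5p. miR-9-5p, which drives neural progenitors towards differentiation, had 2.04, 2.12 and 2.02 in treated day 9 cells and 0.67, 0.53 and 0.36 in day 5 cells (difference 1.54, SE 0.11, adjusted p = 2.1e-08). The other arm, miR-9-3p, had 0.01, -0.06 and -0.12 in treated day 9 cells and -1.39, -1.28 and -1.48 in day 5 cells (difference 1.33, SE 0.13, adjusted p = 7.7e-07). Both arms were higher on every treated array.

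miR-124-3p, the neuron-specific miRNA best known for repressing non-neuronal genes, had 1.31, 1.34 and 1.34 in treated day 9 cells and 1.07, 0.97 and 1.11 in day 5 cells. The miR-124-3p arrays did not overlap, but the difference of 0.28 (SE 0.07, adjusted p = 0.0032) was between 0.05 and 0.20 with the 4 other scalings and its call ended with 3 of them. miR-128-3p differed by 0.33 (SE 0.08, adjusted p = 0.0039), a call that ended with all 4. miR-137-3p was above background on 1 array of each group and differed by -0.21 (adjusted p = 0.20). The neuronal miRNA that fell was miR-124-5p, which was above background on 0 treated and 2 day 5 arrays.

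miR-132-3p and miR-212-3p, which share a seed and lie at chr11:75173443-75173744 (+ strand), are known as activity-induced neuronal miRNAs. miR-132-3p had -1.61, -1.70 and -1.65 in treated day 9 cells and was at the floor on all day 5 arrays, an increase of at least 4.78-fold (adjusted p = 2.7e-10). miR-212-3p had -0.93, -1.0 and -0.88 in treated day 9 cells and -1.08, -1.23 and -1.87 in day 5 cells. The miR-212-3p arrays did not overlap, but day 5 replicate 3 lay below the other day 5 arrays, and the difference of 0.46 (SE 0.26, adjusted p = 0.16) did not pass the test.

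Several miRNAs linked in the literature to dopaminergic neurons were also higher. miR-218-5p, known from motor neurons in mouse, had -0.53, -0.40 and -0.55 in treated day 9 cells and -1.17, -1.57 and -1.54 in day 5 cells (difference 0.93, SE 0.10, adjusted p = 3.2e-06). miR-7a-5p, which represses alpha-synuclein, had -0.78, -0.79 and -0.93 in treated day 9 cells and -1.34, -1.70 and -1.78 in day 5 cells (difference 0.77, SE 0.12, adjusted p = 1e-04). miR-34b-5p was higher by 0.54 (SE 0.12, adjusted p = 0.0013). For miR-34c-5p the increase was 0.56 (SE 0.11, adjusted p = 4.3e-04), and neither miRNA's groups overlapped. Of 10 tested members of that literature list, 7 rose and 1 fell, with a median of 0.55; several are also in the lists above. miR-133b-3p, also reported from dopaminergic neurons of the midbrain, had 0 of the study's 15 arrays above background.

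**Figure D3:**
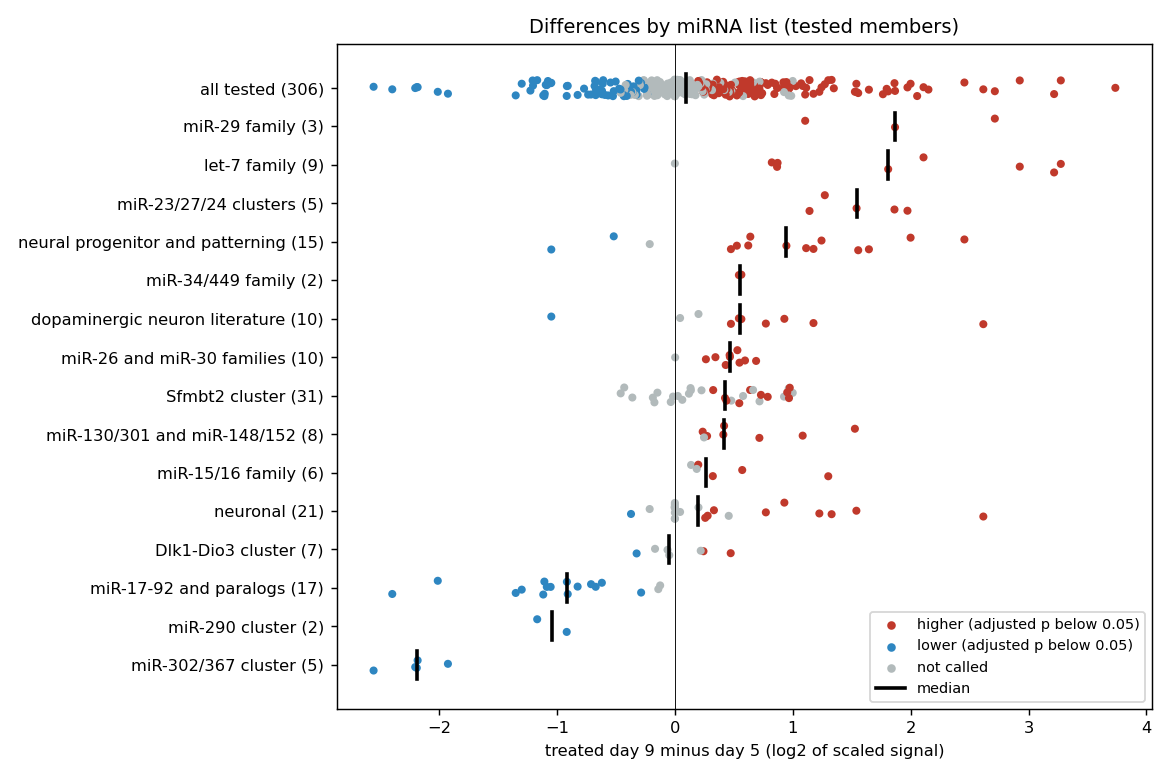
Differences between treated day 9 and day 5 cells (x axis, log2 of scaled signal) for the tested members of each list, with the number of members in brackets, 1 point per miRNA, coloured by call, and the median as a black bar. The row of all 306 miRNAs has its median at 0.10, while the miR-29 family, let-7 family and miR-23/27/24 clusters have medians of 1.87, 1.81 and 1.54 and the miR-302 cluster one of -2.19.

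The miR-23/27/24 clusters, known from endothelial cells, were higher: 5 of 5 tested members rose, with a median of 1.54. All 5 also rose with normexp (median 0.60) and with a floor 4 times higher (median 0.82). miR-23a-3p had -0.98, -1.01 and -1.05 in treated day 9 cells, against -3.08, -2.95 and -2.93 in day 5 cells (difference 1.97, SE 0.07, adjusted p = 2.1e-11). miR-27a-3p had -1.79, -1.66 and -1.67 in treated day 9 cells, against -3.72, -3.44 and -3.55 in day 5 cells (difference 1.86, SE 0.08, adjusted p = 1.3e-10). The members of the cluster at chr8:84208563-84208896 (+ strand), which are miR-23a-3p, miR-27a-3p and miR-24-3p, were all higher, miR-24-3p by 1.54 (SE 0.08, adjusted p = 5.1e-10). miR-24-3p also has a locus on chromosome 13 beside miR-27b-3p, which was higher by 1.27, and miR-23b-3p was higher by 1.14.

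All 3 tested members of the miR-29 family, known for repressing collagens and DNA methyltransferases, were higher, with a median of 1.87 that was 0.49 with normexp and 0.30 with a floor 4 times higher. miR-29a-3p had -1.54, -1.57 and -1.56 in treated day 9 cells and was at the floor on all day 5 arrays, at least 5.12-fold higher (adjusted p = 1.5e-11). miR-29b-3p had -1.99, -2.0 and -1.93 in treated day 9 cells and -3.77, -3.83 and -3.92 in day 5 cells, above background on 1 of those (difference 1.87, SE 0.12, adjusted p = 8e-09). miR-29c-3p was higher by 1.11 (SE 0.08), a call that ended with normexp (0.29, adjusted p = 0.067).

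miR-375-3p, an miRNA of pancreatic islets and other neuroendocrine cells, had -0.48, -0.49 and -0.62 in treated day 9 cells and was at the floor on every day 5 array. Its increase was at least 10.4-fold (adjusted p = 3.9e-14), the largest bound among miRNAs above background on all arrays of one group and none of the other. That p-value belongs to the fitted difference of 3.74, and the SD of 0 at the floor in day 5 cells makes it smaller. miR-674-3p had -0.69, -0.70 and -0.55 in treated day 9 cells and -2.84, -3.08 and -2.47 in day 5 cells (difference 2.15, SE 0.12, adjusted p = 1.4e-09), and the other arm, miR-674-5p, rose by 2.06. miR-210-3p, the main hypoxia-induced miRNA, had 1.87, 1.99 and 1.89 in treated day 9 cells and 0.26, 0.10 and 0.00 in day 5 cells (difference 1.80, SE 0.09, adjusted p = 4.6e-10). miR-676-3p was at least 3.09-fold higher.

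Smaller increases were found in miR-21-5p, miR-322-5p, miR-148a-3p and miR-152-3p. miR-21-5p had 0.51, 0.59 and 0.69 in treated day 9 cells and -0.59, -0.57 and -1.10 in day 5 cells (difference 1.35, SE 0.12, adjusted p = 2.8e-07). miR-322-5p, of the miR-15/16 seed family, was higher by 1.30 (SE 0.10), while miR-16-5p differed by 0.20 (adjusted p = 0.025), a call that ended with each of the 4 other scalings. miR-148a-3p and miR-152-3p, which share a seed, were higher by 1.08 and 1.53. In the miR-26 and miR-30 families 9 of 10 tested members were higher, with differences of at most 0.69, and 3 to 7 were higher with the other scalings. Other decreases over 2-fold included miR-712-5p (-1.23), miR-1949 (-1.21), miR-877-5p (-1.20), miR-2861 (-1.10) and miR-139-3p (-1.10).

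Markers of other cell types were checked on the same arrays. The miR-200 family of epithelium (10 miRNAs), striated muscle (15), endothelium and blood (13), skin (4) and Hox-cluster miRNAs (11) had 0 members above background on any of the 6 arrays. Of 6 miR-183 cluster members, miR-96-5p was above background on 1 day 5 array and the rest on none. Summed scaled signals of a list, given below, count undetected members at or near the floor. The 15 striated muscle miRNAs, with 0 detected, thus summed to 0.778 in both groups. Of 5 glial miRNAs, 3 were above background on some array, and the summed scaled signal of the list ran from 4.88 to 5.17 in treated day 9 cells and from 3.2 to 3.74 in day 5 cells. Most of the glial sum was miR-219-5p, which was higher by 0.58 (SE 0.11, adjusted p = 3.1e-04). The increase of miR-338-3p was 0.49 (SE 0.10, adjusted p = 5.7e-04).

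Of 11 mesenchymal and smooth muscle miRNAs, 4 were above background on some array, 2 were tested (miR-21-5p, above, and miR-199a-3p, at least 1.30-fold) and both were higher. miR-214, miR-145 and miR-143 were below background in both arms on all 6 arrays. The summed signal of that list ran from 1.98 to 2.21 in treated day 9 cells and from 0.983 to 1.19 in day 5 cells. Its largest part was miR-21-5p, and undetected members at the floor made up much of the day 5 sum. Of 17 endodermal miRNAs, 3 were above background on some array, with a sum of 1.48 to 1.55 in treated day 9 cells and 0.884 to 0.917 in day 5 cells. Nearly all of that day 5 sum came from members at the floor. miR-375-3p is a member of the endodermal list, and miR-216a-5p, the other tested member, differed by -0.14 (adjusted p = 0.16). miR-122-5p, miR-192-5p and miR-194-5p were not above background on any of the 6 arrays. The part that other cell types have in the differences was not tested. The sample titles call the day 5 and control cells EpiSC and the treated cells DA. The miR-302 members tested were above background on all 3 day 5 arrays, and miR-302d-3p and miR-367-3p on all 3 treated arrays as well.

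Control cells at day 9 show what the same days brought without morphogens. They share the day 5 arrays with the comparison above, and they lie on another slide than those, so their values carry the slide as well as the condition. A fit with the slide as a block is possible because treated day 14 arrays lie on both slides. Only these arrays link the slides: replicates 1 and 2 lie on slide 1 and replicate 3 on slide 2. All values with the slide block therefore depend on treated day 14 replicate 3. Control day 9 minus day 5 had 180 calls (58.8%), 73 higher (23.9%) and 107 lower (35%), a balance that an all-probe scaling turned to 107 higher and 49 lower, and 98 calls with the slide block. Treated minus control at day 9 had 170 calls (55.6%).

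The decreases of the stem cell miRNAs were present with and without morphogens. miR-302a-3p differed from day 5 by -2.56 in treated cells and by -2.71 in control cells, and treated and control cells differed by 0.15 (SE 0.11, adjusted p = 0.27). miR-363-3p differed from day 5 by -2.01 in treated and -1.94 in control cells (treated minus control -0.07, SE 0.07, adjusted p = 0.42). miR-20b-5p differed by -1.05 in treated and -1.04 in control cells (treated minus control -0.01, SE 0.10, adjusted p = 0.98). The increases of miR-99a-5p (2.00 treated, 2.02 control) and miR-100-5p (1.56 treated, 1.55 control) were as near each other, with treated minus control of -0.02 (SE 0.06, adjusted p = 0.79) and 0.01 (SE 0.07, adjusted p = 0.97).

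Other increases were smaller in treated than in control cells. let-7c-5p differed from day 5 by 3.27 in treated and 4.35 in control cells (treated minus control -1.08, SE 0.11, adjusted p = 1.9e-06, and 0.0039 with the slide block). let-7i-5p was lower in treated than in control cells by -1.14 (adjusted p = 2.2e-07, and 4.4e-04 with the block). miR-124-3p differed from day 5 by 0.28 in treated and 1.25 in control cells (treated minus control -0.97, SE 0.07, adjusted p = 5.6e-08, and 2.3e-04 with the block). miR-9-3p differed by 1.33 and 2.36 (treated minus control -1.03, SE 0.13, adjusted p = 1.5e-05, and 0.0012 with the block). The let-7a-5p difference of -0.88 (adjusted p = 1.8e-04) lost its call with the slide block (adjusted p = 0.052). miR-137-3p, near background in treated and day 5 cells, differed from day 5 by 1.12 in control cells.

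Another set was higher in treated than in control cells at day 9. miR-375-3p was not above background on any control day 9 array, and treated cells had at least 12.6-fold more (adjusted p = 3.9e-14). miR-23a-3p differed from day 5 by 1.97 in treated and 0.06 in control cells (treated minus control 1.91, SE 0.07, adjusted p = 7.5e-11, and 1.5e-07 with the slide block). miR-674-3p differed by 2.15 in treated and 0.03 in control cells (treated minus control 2.12, SE 0.12, adjusted p = 4.4e-09, and 2e-05 with the block). miR-29a-3p was above background on 2 of 3 control arrays and 0 day 5 arrays, and treated cells exceeded control cells by 2.37 (SE 0.09, adjusted p = 8.3e-11, and 5.6e-07 with the block). miR-132-3p was above background on all 3 control arrays and 0 day 5 arrays. Its control mean of -3.92 did not exceed the lowest signals counted as above background at day 5 (bound -0.01), so no minimum increase over day 5 is given. Treated cells exceeded control cells in miR-132-3p by 2.27 (SE 0.12, adjusted p = 3.5e-09, and 9.9e-06 with the block).

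Of the dopaminergic literature list, miR-218-5p, miR-7a-5p and miR-135a-5p were also higher in treated than in control cells. miR-7a-5p differed from day 5 by 0.77 in treated and -0.22 in control cells (treated minus control 0.99, SE 0.12, adjusted p = 1.5e-05, and 0.030 with the block). miR-218-5p differed from day 5 by 0.93 in treated and 0.03 in control cells (treated minus control 0.90, SE 0.10, adjusted p = 7.1e-06, and 0.011 with the block). miR-135a-5p differed by 1.18 in treated and -0.09 in control cells (treated minus control 1.26, SE 0.15, adjusted p = 1.1e-05). With the slide block the miR-135a-5p control difference was 0.43 and treated minus control 0.74 (adjusted p = 0.031). miR-135a-1-3p, the member that fell, differed from day 5 by -1.05 in treated and -1.22 in control cells (treated minus control 0.17, SE 0.12, adjusted p = 0.26). miR-212-3p, of the neuronal list and not called against day 5 in treated cells, differed from day 5 by -1.97 in control cells, and treated cells exceeded control cells by 2.42 (SE 0.26, adjusted p = 4.2e-06). With the slide block the miR-212-3p control difference was -0.88 and no longer called (adjusted p = 0.056), and treated minus control was 1.33 (adjusted p = 0.0089).

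**Figure D4:**
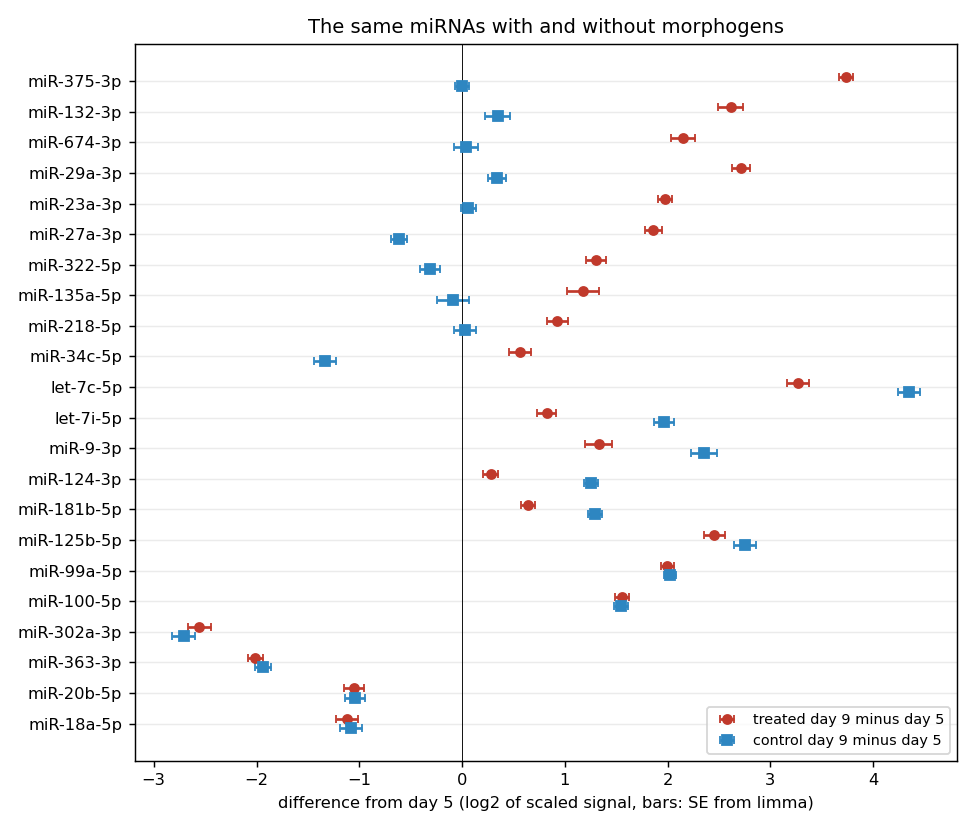
Difference from day 5 (x axis, log2 of scaled signal) of 22 miRNAs in treated day 9 cells (red circles) and control day 9 cells (blue squares); bars are limma's SE, with 3 arrays per group and the day 5 arrays shared. miR-375-3p, miR-132-3p, miR-29a-3p and let-7i-5p are at the floor at day 5, so their points depend on it. From miR-375-3p down to miR-34c-5p the treated point lies right of the control point, from let-7c-5p to miR-125b-5p it lies left of it, and for miR-99a-5p, miR-100-5p, miR-363-3p, miR-20b-5p and miR-18a-5p the points nearly coincide.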

How the data were processed

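The deposited scanner tables give spot signals as intensity (Cy3), per the file headers (Feature Extraction 11.0.1.1), and arrays are not normalized to each other in them. The flag columns used (unit other: 0 or 1 for above background, saturation and outliers) are also as deposited, per the file headers. The deposited value table is intensity too: within 0.1%, 73.3% to 83.8% of probes match the scanner spots' mean in 14 columns, so it is linear, uncentred and not normalized. In it, 86.05% of the values of treated day 14 replicate 2 match replicate 1 within 0.1%, so an alternative fit on that table averaged the pair into 1; the scanner tables of the pair differ, and all 15 arrays entered the reported fit. Its column medians were 0.443, 0.546 and 0.384 in treated day 9 cells and 0.104, 0.217 and 0.0505 in day 5 cells. Per the submitters' processing notes limma 3.20.9 was used, with no step named.

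Reported values were computed from the scanner tables. Each probe is the mean background-subtracted signal of its spots without outliers. Scaling used the 75th percentile of each array, taken on 353 probes detected on all 15 arrays. Signals were raised to a floor of -4.27 (log2), the median over arrays of the lowest detected signal, and log2 was taken. A probe was detected if 50% or more of its spots had the above-background flag, a miRNA if any of its probes was, and the value of a miRNA is that of its brightest probe. Where no array of a group was detected, a bound ("at least") against the lowest detected signal is given, since a fitted difference then depends on the floor. The p-value beside a bound is that of the fitted difference, not of the bound. One limma 3.58.1 model (R 4.3.3) held all 5 groups, with 10 residual and 3.06 prior degrees of freedom. Its two-sided p-values were adjusted by Benjamini-Hochberg over 306 miRNAs, with a threshold of 0.05. The script was tested on simulated data. Sequences of 881 of the 1122 miRNAs (227 of the 306) were found by exact name in the RefSeq tables. Clusters join miRNAs within 10000 bases on a strand.

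The members, miRNA lists, marker lists and naming rule were chosen with earlier results of these data known. The rule took the 12 largest increases and 12 largest decreases among called miRNAs above background on all 6 arrays with no overlap, up to 6 and 6 bounds, at most 4 called miRNAs per list and per seed family, and a set of stem cell and neural miRNAs; 95 miRNAs were named. miRNAs given beside them as the rest of a list, as another arm or for a call outside the rule were chosen after their values were seen. Alternatives were 4 other scalings, normexp background correction (on median spot signals, offset 50), floors, filters, probe summaries, sets of arrays, a slide block, a replicate block and leaving out each array. Tables were read in R with jsonlite 2.0.0 and the data.table package (version 1.17.8); plots used Python 3.11.15, numpy 2.4.6, pandas 2.3.3 and matplotlib 3.10.9.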

Additional observations from a re-analysis of the deposited data

Results flagged for a closer look

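Against day 5, 16 of the 306 tested miRNAs were called higher in treated day 9 cells and lower in control day 9 cells. A called difference between treated and control cells at day 9 was a further condition. Under the same conditions 0 miRNAs went the other way round, and 9 of the 16 are among the named miRNAs. With this scaling the median over all 306 miRNAs was 0.10 in treated and -0.09 in control cells. The counts were not repeated with the other scalings. Since treated minus control was part of the choice, its p-values are no further test of these miRNAs. The difference itself, treated minus control at day 9, was fitted with limma and adjusted over all 306 miRNAs. It was 2.48 for miR-27a-3p (SE 0.08, adjusted p = 1.6e-11), 1.90 for miR-34c-5p, 1.88 for miR-34b-5p, 1.61 for miR-322-5p, 1.34 for miR-219-5p, 0.931 for miR-130b-5p and 0.398 for miR-16-5p (SE 0.07, adjusted p = 2.8e-04). miR-29b-3p and miR-676-3p were above background on 0 control arrays, so their fitted differences of 2.30 and 1.99 depend on the floor. As bounds, treated cells had at least 4.63-fold more miR-29b-3p (adjusted p = 2.4e-09) and at least 3.74-fold more miR-676-3p (adjusted p = 2.0e-10) than control cells. miR-676-3p was above background on 0 day 5 arrays as well, so its lower call in control cells compares groups that both lie below background.

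Control day 9 arrays lie on another slide than the treated day 9 and day 5 arrays. With the slide as a block, the lower call in control cells against day 5 held for 3 of the 9 named miRNAs: miR-27a-3p (-0.51, adjusted p = 0.014), miR-34b-5p (-1.07, adjusted p = 0.0014) and miR-34c-5p (-1.27, adjusted p = 3.8e-04). It did not hold for miR-322-5p (-0.16, adjusted p = 0.52), miR-219-5p (-0.44, adjusted p = 0.058), miR-130b-5p (-0.37, adjusted p = 0.17), miR-16-5p (-0.061, adjusted p = 0.72) or miR-676-3p (adjusted p = 0.35), and for miR-29b-3p the sign turned (0.099, adjusted p = 0.56). Treated minus control with the block was 2.37 for miR-27a-3p (adjusted p = 1.5e-07), 1.83 for miR-34c-5p, 1.61 for miR-34b-5p, 1.46 for miR-322-5p, 1.02 for miR-219-5p and 0.789 for miR-130b-5p (adjusted p = 0.0093). For miR-16-5p it was 0.26 (adjusted p = 0.14), which lost its call.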

How the results depend on the processing

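Of 22 alternatives, none turned a call shared with the reported analysis to the other direction. The share of tested miRNAs called was 34.6% with normexp (19.3% higher), against 58.8% (37.6% higher) as reported. It was 24.2% higher with a floor 4 times higher and 35.8% higher when miRNAs above background on all 6 arrays were the ones tested, which leaves fewer miRNAs (76 called higher). For control day 9 minus day 5, an all-probe percentile gave 16% lower, and the slide block gave 32% called and 15.4% lower. Leaving out 1 array gave 163 to 197 calls, 54 to 71 of them lower. Among named miRNAs, normexp and the higher floor each ended 21 calls without a change of sign. Normexp also ended 2 calls whose sign changed. Differences that changed sign, none of them called after the change, were miR-16-5p with the all-probe percentile (-0.024), miR-195-5p (-0.072) and miR-432 (-0.11) with normexp, and miR-345-5p with quantile normalization (-0.052). Medians that changed sign with normexp were those of the neuronal list (-0.12) and the Sfmbt2 list (-0.064). The median of the Dlk1-Dio3 list changed sign when 1 array was left out (-0.072 to 0.030, the last without day 5 replicate 3). For normexp and the scalings, the cause was not tested.

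Deviations of same-numbered treated day 9 and day 5 arrays correlated at -0.09, 0.57 and -0.28. With 3 arrays per group such values depend on each other, so they cannot decide whether same-numbered samples pair. Treated replicate 3 with day 5 replicate 1 correlated at 0.55, and treated replicate 1 with day 5 replicate 3 at 0.35. The remaining pairs lay between -0.46 and -0.05. Whether the samples pair in another order was not tested. A fit with the replicate number as a block called 178 miRNAs (58.2%), 115 higher and 63 lower. With only the 6 arrays in the fit, 166 were called. Signals near background limit the differences of miR-302, let-7, miR-290, miR-29 and miR-132 miRNAs to bounds or to values that shrink with a higher floor.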

Other observations

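Arms were paired by name, and both arms of 35 hairpins so paired were tested. Hairpins with a locus number in the name of only 1 arm were left out of this count. For 17 hairpins both arms were called the same way, among them miR-17, miR-18a, miR-9 and miR-674. For 3 of the 35 the arms were called opposite ways. Outside this count, miR-135a-5p and miR-135a-1-3p, described above, were called opposite ways too. In miR-124 the 3p arm was higher by 0.28 and the 5p arm lower by -0.37, but the 5p arm was above background on 0 treated and 2 day 5 arrays. In miR-652 the 3p arm was higher by 0.37 (SE 0.12, adjusted p = 0.012) and the 5p arm lower by -0.43 (SE 0.11, adjusted p = 0.0052). In miR-328 the 3p arm, not above background on any day 5 array, was at least 1.20-fold higher and the 5p arm lower by -0.23 (SE 0.08, adjusted p = 0.023).

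The Sfmbt2 cluster is a rodent-specific array of near-identical miRNAs whose probes can share signal. The list named after it was built by miRNA name, not by locus. Its members lie on different chromosomes, such as miR-466i-3p on chromosome 13 and miR-467f on chromosome 11, so not all belong to that cluster. Of 31 tested members of the list 10 were higher and 0 lower, with a median of 0.43. Over all tested miRNAs 37.6% were higher. The count of higher members was 1 with normexp, 3 with a floor 4 times higher, and 9 to 18 when 1 array was left out. The list named after the imprinted Dlk1-Dio3 cluster was also built by name. Of it, 8 miRNAs were detected in treated day 9 or day 5 cells and 98 were not. Of 7 tested 2 were higher and 1 lower, with 0 to 1 higher under the 4 other scalings and 0 with normexp. Of the higher 2, miR-345-5p lies at chr12:108836989-108837010, apart from miR-432 at chr12:109595006-109595028 and the members at chr12:109715367-109747914. miR-221-3p, above background on 1 treated array, was lower by -1.08 (SE 0.07, adjusted p = 1.2e-08). In the miR-15/16 family 4 of 6 tested members were higher, and in the families of miR-130 and miR-148 with their relatives 7 of 8, with medians of 0.26 and 0.41; with the 4 other scalings 2 and 3 to 7 of them were higher.

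The differences also ran with the base composition of the mature miRNA. Of 41 miRNAs with at most 40% G and C, 21 were higher and 8 lower (median 0.41), while of 62 with over 60%, 6 were higher and 20 lower (median -0.15). Over the 227 miRNAs with a sequence, Pearson's r between G and C content and the difference was -0.24 and Spearman's rho -0.32, as a description across miRNAs that share the same 6 arrays. The part of base composition in the differences was not tested. Of 57 viral miRNAs on the array, for viruses not labelled as present in these cells, 4 were above background on all 6 arrays, with a median difference of 0.03.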
